A study of Mus musculus with 15 samples.

Results

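The genes described here are the members of the mouse Zfp series (zinc finger protein genes, named Zfp and a number) that were expressed in brain myeloid cells. Genes were chosen by name and by measured level: the symbol had to be Zfp followed by digits only, and the mean over the 15 libraries had to reach 5 cpm (the expected read count scaled to a common library total). Of 341 Zfp genes among the 38924 genes of the files, 238 met this rule and 103 did not. The libraries are RNA-seq of CD11b+CD45hi and CD11b+CD45lo cells sorted from the brains of wild type male C57BL/6J (B6) mice at 12 months of age. The mice ate a control chow diet (CD), or a western diet (WD, with more milk fat and protein, added fructose corn syrup and less fiber) from 2 months of age. There were 4 libraries of CD CD45hi cells, 4 of CD CD45lo cells, 3 of WD CD45hi cells and 4 of WD CD45lo cells. No group carried a transgene or a deletion. Per the study's methods, brains were perfused and freed of olfactory bulb and cerebellum, and the sort left out CD3e+ cells. CD45 is a leukocyte surface protein that is low on microglia, and the CD45hi gate is taken to be enriched for infiltrating leukocytes. The paper found microglial genes in the CD45hi cells too, at lower levels, and proposes that this gate also holds microglia. The labels do not say whether a library came from a single mouse, though the paper describes its deposited read counts as given per animal. The p-values measure the spread between libraries. The names of the deposited data pair 7 CD45hi libraries with a CD45lo library by a shared specimen number (with equal replicate numbers on the CD, and CD45hi replicates 1, 2 and 3 with CD45lo replicates 2, 3 and 4 on the WD), and where a fit with that number as a block ends a call, its FDR is given beside it.

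The rule used the mean level only, so levels are given as a description. The Zfp genes nearest to the limit were Zfp583 (5.01 cpm) and Zfp931 (5.02 cpm) inside it, and Zfp109 (4.93 cpm) and Zfp108 (4.82 cpm) outside it. The mean joins both cell types, and a gene that was low in a single group could still pass. Of the 238 genes, 71 had a mean under 5 cpm in at least 1 of the 4 groups: 64 of these were under it in a CD45hi group only, 2 in a CD45lo group only and 5 in both. All 238 passed the filter of the test, which was 1 cpm in at least 2 libraries. The symbol Zfp319 stood for 2 gene identifiers, of which the one on chromosome 8 (ENSMUSG00000046556) is the one named below.

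A zinc finger is a short loop of protein held by a zinc ion between cysteine and histidine residues, and fingers of the C2H2 kind, strung one after another, read DNA sequence. In mouse many of the C2H2 genes also encode a KRAB domain, which recruits the co-repressor TRIM28 (KAP1) and through it the histone methyltransferase SETDB1, HP1 proteins and the NuRD complex, and so silences transposable elements and imprinted loci. These genes sit in clusters that arose by local duplication, and most are transcribed at low levels. Others of the series have unrelated roles in RNA decay, ribosome quality control or ubiquitin and SUMO conjugation.

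In the GENCODE M21 annotation (GRCm38, the same assembly as mm10) 237 of the 238 genes were found and 236 had a coding sequence. A score of at least 8 of 12 conserved KRAB positions was met by 129 of the 236, and 107 did not meet it. The count of C2H2 matches had a median of 12 in the genes with the KRAB pattern and 8 in those without, with 36 as the highest. Chromosome 7 held 54 of the genes (22.7%), chromosome 17 held 29 and chromosome 13 held 23, and 138 lay within 200 kb of another Zfp gene. The stretches below are the coding strand of 1 finger from each of 5 genes whose levels differed between the cell types, with the codons of the metal-binding cysteines and histidines in capitals. They show how alike the fingers are in the frame that holds the metal. Zfp626 lies at chr7:27818118-27818180 (+), Zfp27 at chr7:29895858-29895920 (-), Zfp606 at chr7:12493250-12493312 (+), Zfp174 at chr16:3854570-3854632 (+) and Zfp36 at chr7:28378158-28378217 (-), all on GRCm38 and all within coding exons.
Zfp626: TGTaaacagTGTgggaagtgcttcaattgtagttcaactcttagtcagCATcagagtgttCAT
Zfp27: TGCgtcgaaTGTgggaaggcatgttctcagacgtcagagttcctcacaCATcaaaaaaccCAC
Zfp606: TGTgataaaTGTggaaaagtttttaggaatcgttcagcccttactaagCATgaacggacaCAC
Zfp174: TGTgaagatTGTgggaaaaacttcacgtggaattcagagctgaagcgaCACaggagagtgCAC
Zfp36: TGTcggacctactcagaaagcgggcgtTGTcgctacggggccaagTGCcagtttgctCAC

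The first 4 are C2H2 fingers of the same spacing, and over their 63 bases pairs were identical at 42.9% to 61.9% of positions. The fifth is the CCCH finger of Zfp36, the only gene of the 238 in which that kind was found. Likeness of this order extends to whole stretches in some genes. In 59 of the 238 genes at least 1 window of 75 coding bases, the read length, occurred in another gene, and in 14 such windows made up over 30% of the coding sequence. For Zfp708 and Zfp935, listed after their values were seen, the share was 100%, with overlapping gene models (Gm28557 and Gm49359). In 115 genes the expected count was fractional in at least 1 library. Levels of these genes are less certain than those of genes without shared windows.

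Libraries held between 11951412 and 17912272 expected counts. A gene at 3 counts, used here as the floor, then stood at 0.156 to 0.282 cpm once totals were scaled by the trimmed mean of M values (TMM). This floor covers counting error only. Between 14072 and 15477 genes had at least 1 count in the CD45hi libraries and between 16004 and 17864 in the CD45lo libraries. Summed cpm of 6 microglial markers was 4960 to 6090 in CD45hi and 10600 to 13300 in CD45lo libraries. For 6 neutrophil markers it was 698 to 2740 against 41.9 to 232, and for 4 of 5 listed monocyte markers found in the files 290.0 to 671 against 10.8 to 62.1. The sums of 5 T and NK cell markers were 9.85 to 82.1 against 0 to 0.104, with Trbc2 at 0 in all 15 libraries, and those of 4 B cell markers were 7.6 to 27 against 3.41 to 13.1. Sums over 3 markers each were 36.4 to 176 against 39.6 to 105 for astrocytes, 88.7 to 213 against 58.3 to 96 for oligodendrocytes, 0.134 to 27.4 against 1.74 to 11.1 for neurons and 0.459 to 8.99 against 0.43 to 3.79 for endothelial cells and pericytes. The sums for microglia, neutrophils, monocytes, and T and NK cells did not overlap between the gates. Aldh1l1 (astrocytes), Mog (oligodendrocytes) and Syt1 (neurons) were at 0 in every CD CD45hi library, and Cd3e was at 0 in all CD45lo and all WD CD45hi libraries. The part of these other cells in the differences described below was not tested, and in bulk libraries fewer cells of a type and less RNA per cell cannot be told apart.

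A single gene dominated the family. Zfp36 encodes tristetraprolin, which binds AU-rich elements of cytokine messages such as that of Tnf and brings about their decay. It had a mean of 3517 cpm, followed by Zfp652 (499.7 cpm), Zfp871 (318.8 cpm), Zfp292 (241 cpm) and Zfp488 (233 cpm). Compared per transcript length, in the deposited TPM values, the order was Zfp36 (3415 TPM), Zfp207 (224 TPM), Zfp871 (106 TPM), Zfp106 (105 TPM), Zfp652 (92.9 TPM) and Zfp488 (91.9 TPM). The median of the 238 genes was 12.1 TPM, and 67 of them had at least 20 TPM. Zfp207 encodes a microtubule-binding protein of the spindle, and Zfp488 is known as a regulator of oligodendrocyte differentiation.

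The summed level of the 238 genes was 11973 to 14010 cpm in the CD45hi libraries and 9773 to 11382 cpm in the CD45lo libraries after TMM scaling, without overlap. Without that scaling the sums were 10870 to 12870 and 10850 to 12340 cpm, which overlapped. Zfp36 made up 38.2% to 42.5% of the sum in CD45hi and 15.2% to 26.6% in CD45lo libraries. Without Zfp36 the CD45hi sums were no longer the higher ones. The sum of the other 237 genes was 7317 to 8334 cpm in CD CD45hi against 7910 to 8285 cpm in CD CD45lo libraries, which overlapped, and 7468 to 7926 cpm in WD CD45hi against 8349 to 8590 cpm in WD CD45lo libraries, which did not.

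**Figure D1:**
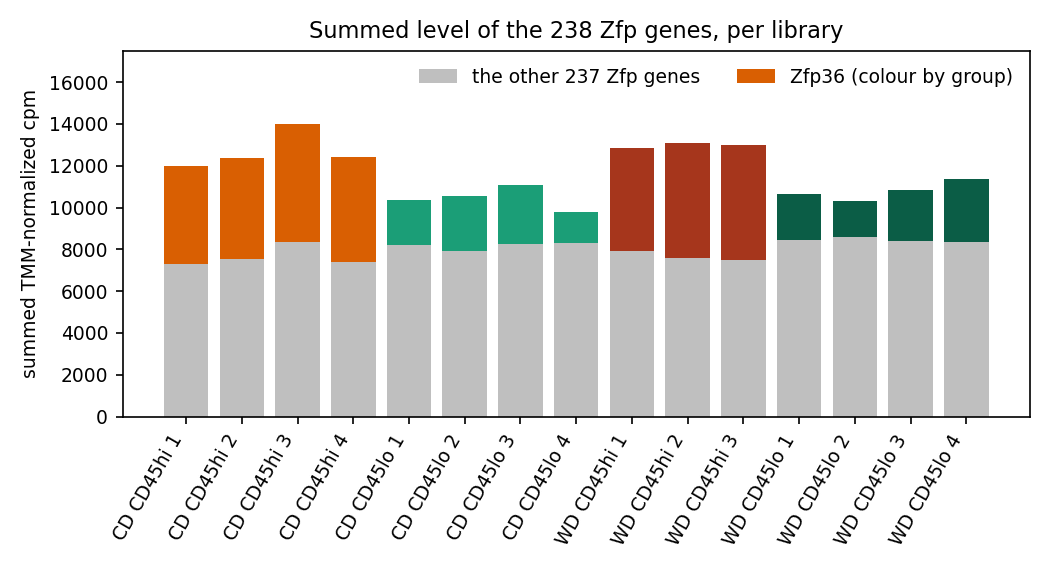
Stacked bars give the summed TMM-normalized cpm of the 238 Zfp genes in each of the 15 libraries, with Zfp36 coloured by group on top of the other 237 genes in grey. The Zfp36 portion is larger in all 7 CD45hi libraries, while the grey portion stays between 7317 and 8590 cpm throughout.

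Expression of the Zfp genes was patchy in CD45hi and even in CD45lo cells. A value of 3 counts or fewer, called a dropout here, was seen in 63 of 1666 gene values of the CD45hi libraries (3.78%) and in 1 of 1904 of the CD45lo libraries (0.0525%). The 4 CD CD45hi libraries held 2, 8, 6 and 16 such genes and the 3 WD CD45hi libraries 14, 8 and 9. Among the CD45lo libraries, 7 held none and CD CD45lo replicate 3 held 1, Zfp248. Of the 63 values, 35 were exact zeros. All 7 CD45hi libraries therefore lay above all 8 CD45lo libraries, although their totals overlapped. CD CD45hi replicate 4 and WD CD45hi replicate 1 had the most dropouts and also the fewest genes with a count (14072 and 14073). In the other 5 CD45hi libraries 33 of 1190 values (2.77%) were dropouts.

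The dropouts were spread over many genes. In the CD45hi libraries 197 genes had none, 22 had 1, 16 had 2 and 3 had 3. Of the 41 genes with a CD45hi dropout, 28 had one on the CD, 26 on the WD and 13 on both, and 36 reached at least 100 counts in another CD45hi library. Among 9779 genes of at least 5 cpm outside the family, whose median level was higher (29.8 against 17.8 cpm), 1.72% of CD45hi and 0.61% of CD45lo values were at 3 counts or fewer. Per library the share was 0.84% to 6.72% for Zfp genes and 0.552% to 3.28% for the other genes in CD45hi, and it was higher for the Zfp genes in each of the 7.

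**Figure D2:**
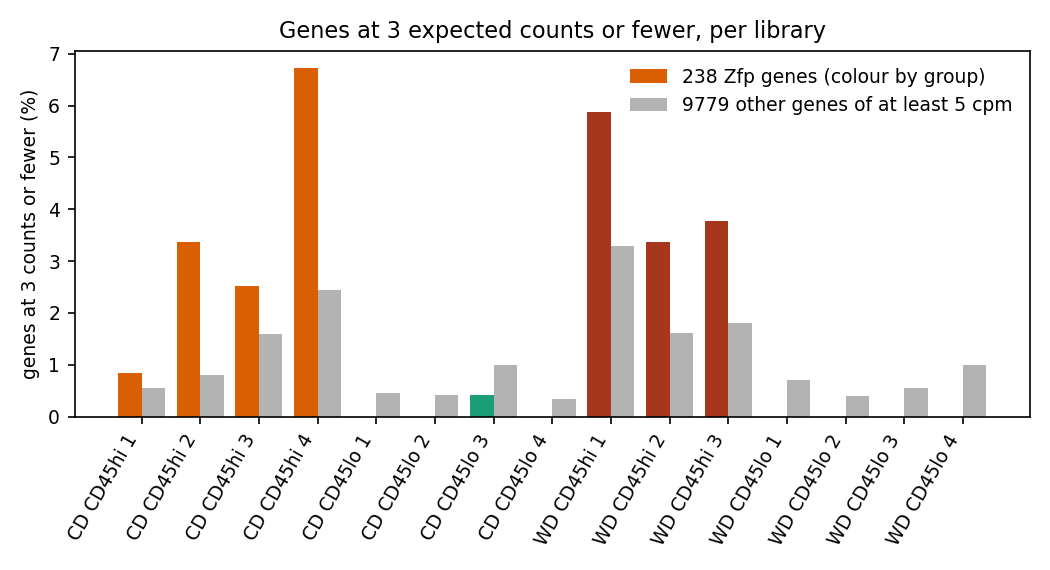
Bars give the percent of genes at 3 expected counts or fewer in each library, coloured by group for the 238 Zfp genes and grey for the 9779 other genes of at least 5 cpm. The coloured bar exceeds the grey bar in all 7 CD45hi libraries and falls below it in all 8 CD45lo libraries.

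Dropouts lay mostly in genes of low mean level, with 57 of the 63 in genes of 5 to 10 cpm. Of genes with a mean of 5 to 10 cpm, 12.0% of CD45hi values were dropouts for the 68 Zfp genes and 7.75% for 1712 other genes. At 10 to 20 cpm the shares were 1.21% and 1.59%, at 20 to 50 cpm 0.204% and 0.166%, and at 50 cpm and over none was seen for either. In CD45lo cells the lowest band gave 0.184% for Zfp genes and 2.37% for other genes. For the 167 Zfp genes with at least 5 cpm in each of the 4 groups, 3 of 1169 CD45hi values (0.257%) were dropouts, against 0.467% for 8140 other genes chosen in the same way.

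The genes with the most dropouts show what this looked like. Zfp286 had 22, 0, 45 and 0 counts in the CD CD45hi libraries, 43, 189, 71 and 158 in CD CD45lo, 0, 4 and 385 in WD CD45hi and 173, 151, 164 and 141 in WD CD45lo. Zfp661 had 9, 55, 1 and 1 counts in CD CD45hi, 229, 110, 181 and 159 in CD CD45lo, 101, 118 and 0 in WD CD45hi and 67, 108, 156 and 171 in WD CD45lo. In each of them a CD45hi library at or near 0 stood beside another with 55 counts or more. Zfp953 had 477, 0, 135 and 406 counts in CD CD45hi and 46.2, 46.3 and 0 in WD CD45hi, while its CD45lo libraries held 217 to 396 (18.6% of its windows occur in another gene). Zfp763 and Zfp764 had 2 dropouts each. Zfp697 was the most highly expressed gene with a dropout, at a mean of 28.5 cpm.

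The uneven values were not limited to zeros. The standard deviation of log2(cpm + 1) between libraries of a group had a median over the 238 genes of 0.857 in CD CD45hi, 0.282 in CD CD45lo, 0.938 in WD CD45hi and 0.288 in WD CD45lo. It was larger in CD45hi than in CD45lo cells for 222 of 238 genes on the CD (93.3%) and for 208 on the WD (87.4%). Other genes of at least 5 cpm behaved alike, with 90.5% and 85%, and medians of 0.654, 0.246, 0.696 and 0.279. Zfp genes in the 5 to 10 cpm band had medians of 1.18 and 1.03 in the CD45hi groups. This spread limits how small a difference can be called for these genes.

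The main question of the design was how CD45hi cells differ from CD45lo cells on each diet. Most Zfp genes had lower means in CD45hi cells. The median log2 fold change (CD45hi against CD45lo) of the 238 genes was -0.22 on the CD and -0.36 on the WD, against 0.04 and 0.00 for all 14967 genes tested. It was below 0 for 151 genes on the CD (63.4%, against 48.1% of all genes tested) and for 159 on the WD (66.8%, against 49.9%). Both were below 0 in 108 genes (45.4%, against 30.6% of all genes) and both above 0 in 36 (15.1%, against 32.4%). For the other genes of at least 5 cpm these shares were 29.4% and 36%. Since most genes that were low in a single group were low in CD45hi, the same was computed for the 167 genes with at least 5 cpm in every group, and their medians were -0.13 and -0.16. For all 238 genes, a log2 fold change beyond 1 was seen upward in 8 on the CD and 9 on the WD. It was seen downward in 40 and 70. The share of all genes tested beyond this limit is not given here, and 64 of the 238 were under 5 cpm in a CD45hi group only. These counts therefore do not set the Zfp genes apart from other genes. Across the 238 genes the changes on the CD and the WD, which share no library, had a Pearson correlation of 0.215 and a Spearman correlation of 0.251, and the genes share their libraries. Both were lower than for all genes tested (0.402 and 0.353), which include genes of lower level. They were also lower than for the 9779 other genes of at least 5 cpm (0.659 and 0.458).

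**Figure D3:**
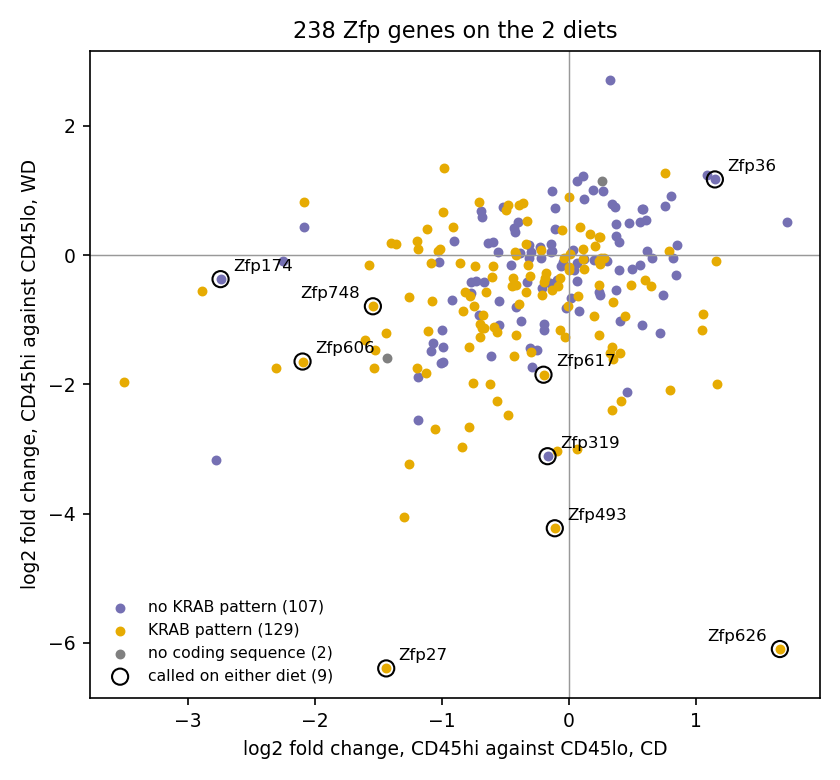
Each point is a Zfp gene, placed by its log2 fold change (CD45hi against CD45lo) on the CD (horizontal) and on the WD (vertical), coloured by KRAB pattern, with rings around the 9 genes called on either diet. More points lie below 0 than above it on both axes, and the 5 genes ringed at the bottom, from Zfp617 (-1.85) to Zfp27 (-6.39), lie far below 0 on the WD axis.

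Few single genes passed the test. Called means an FDR under 0.05 in edgeR glmTreat, which tests for a change beyond 1.5-fold. On the CD 4 Zfp genes were called (1.68%, against 3.98% of all genes tested), 1 higher and 3 lower in CD45hi cells. On the WD 6 were called (2.52%, against 5.18%), 1 higher and 5 lower. Among all genes tested, 3.39% were called higher and 0.588% lower on the CD, and 4.01% and 1.17% on the WD. With no fold limit (edgeR glmQLFTest) 7 were called on the CD (8.03% of all genes) and 16 on the WD (9.12% of all genes), of which 4 and 12 were lower (2.08% and 2.9% of all genes) and 3 and 4 higher (5.95% and 6.22%). Those added by dropping the limit, listed after their values were seen, were Zfp37 (lower), Zfp106 and Zfp395 (higher) on the CD, and Zfp28, Zfp37, Zfp606, Zfp658, Zfp866, Zfp882 and Zfp951 (lower) and Zfp91, Zfp106 and Zfp263 (higher) on the WD. All CD45hi libraries lay below all CD45lo libraries in 28 Zfp genes on the CD (8.22% of all genes did) and in 59 on the WD (13.4% of all genes did), and above them in 3 (8.26%) and 8 (10%).

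Zfp36, the RNA-binding member, was the only gene called on both diets and the only one called higher. Its level was 4656, 4821, 5675 and 5008 cpm in the CD CD45hi libraries and 2138, 2665, 2795 and 1489 cpm in the CD CD45lo libraries. On the WD it was 4900, 5510 and 5518 cpm in CD45hi and 2195, 1742, 2449 and 3033 cpm in CD45lo libraries. The groups did not overlap on either diet, and the CD45lo libraries varied more among themselves. The means were 5040 ± 447 (SD, n = 4) and 2272 ± 594 (n = 4) cpm on the CD, a fold change of 2.22 (log2 1.15, SE 0.176, FDR = 0.0176, edgeR glmTreat), and 5309 ± 354 (n = 3) and 2355 ± 538 (n = 4) cpm on the WD, a fold change of 2.25 (log2 1.17, SE 0.186, FDR = 0.0182, edgeR glmTreat). Its exons overlap those of the antisense gene Gm44710, and whether strand was used in counting is not given in the sources used here. The call was lost when CD CD45lo replicate 1 or 4 (CD), or WD CD45lo replicate 1 or 2 (WD), was left out. With no scaling beyond the library total it was lost on both diets (log2 0.92 and 0.86, FDR = 0.124 and 0.165, edgeR glmTreat). In that fit no Zfp gene was called higher, and 3 on the CD and 12 on the WD were called lower. These were 1.26% and 5.04% of the Zfp genes, against 3.67% and 5.02% of all genes called in either direction. The log2 fold change of Zfp36 stayed between 0.86 and 1.32 over the alternatives, all of which were fitted to the counts. In the deposited TPM values the means were 4261 TPM in CD CD45hi and 2632 TPM in CD CD45lo cells. On the WD they were 4247 TPM in CD45hi and 2728 TPM in CD45lo cells. By that measure the difference was smaller on both diets. The 3 relatives of the same family, Zfp36l1, Zfp36l2 and Zfp36l3, were not called. Zfp36l1 averaged 532 cpm in CD CD45hi and 349 cpm in CD CD45lo cells (log2 0.60, SE 0.203, FDR = 0.75, edgeR glmTreat), Zfp36l2 averaged 470.0 and 451 cpm, and Zfp36l3 stayed at or under 1.48 cpm in every library.

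Of the 3 genes called lower in CD45hi cells on the CD, Zfp606 and Zfp748 encode KRAB zinc finger proteins and Zfp174 a zinc finger protein with a SCAN domain, a motif for pairing between such proteins. Zfp606 had 8.45, 4.72, 7.57 and 9.85 cpm in CD CD45hi and 31.7, 27.2, 33.8 and 38.5 cpm in CD CD45lo libraries. It was 4.28-fold lower in CD45hi cells (log2 -2.10, SE 0.377, FDR = 0.00739, edgeR glmTreat). With the specimen block this call was lost (FDR = 0.058, edgeR glmTreat), as were those of Zfp748 (FDR = 0.106) and Zfp174 (FDR = 0.114), so that no gene was called lower on the CD. The groups were also apart on the WD, at 6.02, 12.4 and 12.8 cpm against 27.5, 44.2, 27.1 and 31.7 cpm, where the 3.13-fold lower level narrowly missed the call (log2 -1.64, SE 0.411, FDR = 0.0566, edgeR glmTreat) and passed with no fold limit (FDR = 0.0159, edgeR glmQLFTest).

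Zfp748 had 14.7, 28.6, 19.7 and 17.4 cpm in CD CD45hi against 53.7, 50.6, 56.5 and 73.4 cpm in CD CD45lo libraries, a 2.92-fold lower level (log2 -1.54, SE 0.304, FDR = 0.0222, edgeR glmTreat). On the WD the libraries did not overlap either (17.9 to 38.3 against 45.6 to 59.6 cpm), with a smaller change that was not called (log2 -0.79, SE 0.327, FDR = 0.43, edgeR glmTreat). Zfp174 had 3.01, 0.497, 0.88 and 4.12 cpm in CD CD45hi against 8.82, 14.6, 17.8 and 16.3 cpm in CD CD45lo libraries. It was 6.70-fold lower (log2 -2.74, SE 0.663, FDR = 0.0346, edgeR glmTreat), while its WD groups overlapped (4.03 to 11.1 against 7.52 to 11.4 cpm). Its exons overlap those of Zfp597 on the opposite strand. Its call was lost in a fit of only the 2 groups compared and with no filter on low counts. The call of Zfp174 was lost without CD CD45hi replicate 2 or 3, without CD CD45lo replicate 2, 3 or 4 and without WD CD45lo replicate 1, 2 or 3 (log2 -3.28 to -2.42 over the alternatives), that of Zfp748 without CD CD45hi replicate 1 or 4 or CD CD45lo replicate 4 (log2 -1.77 to -1.42).

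Of the 5 genes called lower in CD45hi cells on the WD, 4 stood at or below 1.48 cpm in every WD CD45hi library. Zfp626, a KRAB gene of 17 fingers on chromosome 7, had 0, 3 and 0 counts in the WD CD45hi libraries and 63, 100, 81 and 81 in the WD CD45lo libraries. With every WD CD45hi library at or under 3 counts, its level was at least 23.3-fold lower than the 5.53 cpm of the WD CD45lo group (FDR = 0.00436, edgeR glmTreat). On the CD the CD45hi mean was the higher one, with 3.34, 10.8, 4.84 and 23 cpm in CD45hi against 4.53, 3.27, 2.03 and 3.4 cpm in CD45lo libraries, which overlapped and were not called (log2 1.66, SE 0.800, FDR = 0.44, edgeR glmTreat). Of 27 alternatives for the WD call, only the edgeR 4 form of the test lost it.

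Zfp27, a KRAB gene of 21 fingers on the same chromosome, had 0, 5 and 0 counts in WD CD45hi against 145, 204, 142 and 141 in WD CD45lo libraries (log2 -6.39, SE 1.22, FDR = 0.00392, edgeR glmTreat). Its CD CD45hi libraries had 65, 82, 18 and 23 counts and its CD CD45lo libraries 236, 271, 42 and 137, with overlap. It was the sole gene of those called on the WD that kept its call under all 27 alternatives tried for it.

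Zfp493, also a KRAB gene, had 0.658, 0.403 and 0.46 cpm in WD CD45hi against 5.05, 7.05, 12.6 and 13.6 cpm in WD CD45lo libraries (log2 -4.23, SE 1.02, FDR = 0.0232, edgeR glmTreat). Zfp319, without the KRAB pattern, had 0.847, 1.48 and 0.537 cpm against 4.92, 6.08, 9.94 and 12.3 cpm (log2 -3.11, SE 0.697, FDR = 0.0173, edgeR glmTreat). For both, CD CD45hi libraries overlapped CD CD45lo libraries, and their means on the CD were close, at 7.81 and 8.44 cpm for Zfp493 and 7.65 and 8.6 cpm for Zfp319. The other identifier with the symbol Zfp319 did not share this pattern. It had 34.4, 1.61 and 0 cpm in WD CD45hi against 6.1, 4.82, 6.2 and 4.55 cpm in WD CD45lo libraries, which overlapped. Zfp617 had 4.99, 10.2 and 3.45 cpm in WD CD45hi against 19.9, 25.5, 22 and 22.4 cpm in WD CD45lo libraries (log2 -1.85, SE 0.438, FDR = 0.0409, edgeR glmTreat). Of its coding windows 60.9% occur in the gene model Gm18180, so the division of its reads is uncertain. Its call was lost without any single CD45lo library of either diet and without WD CD45hi replicate 1 or 3 (log2 -2.41 to -1.56 over the alternatives). Zfp493 lost its call without any of the WD CD45hi libraries or WD CD45lo replicate 3 or 4 (log2 -4.53 to -4.00), and Zfp319 without WD CD45lo replicate 4. A fit of only the 2 groups compared ended the calls of Zfp319 and Zfp617, and a fit with no filter on low counts that of Zfp617. With the specimen block the calls of Zfp493 (FDR = 0.136), Zfp319 (FDR = 0.142) and Zfp617 (FDR = 0.183, all edgeR glmTreat) were lost, and those of Zfp27 and Zfp626 held.

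**Figure D4:**
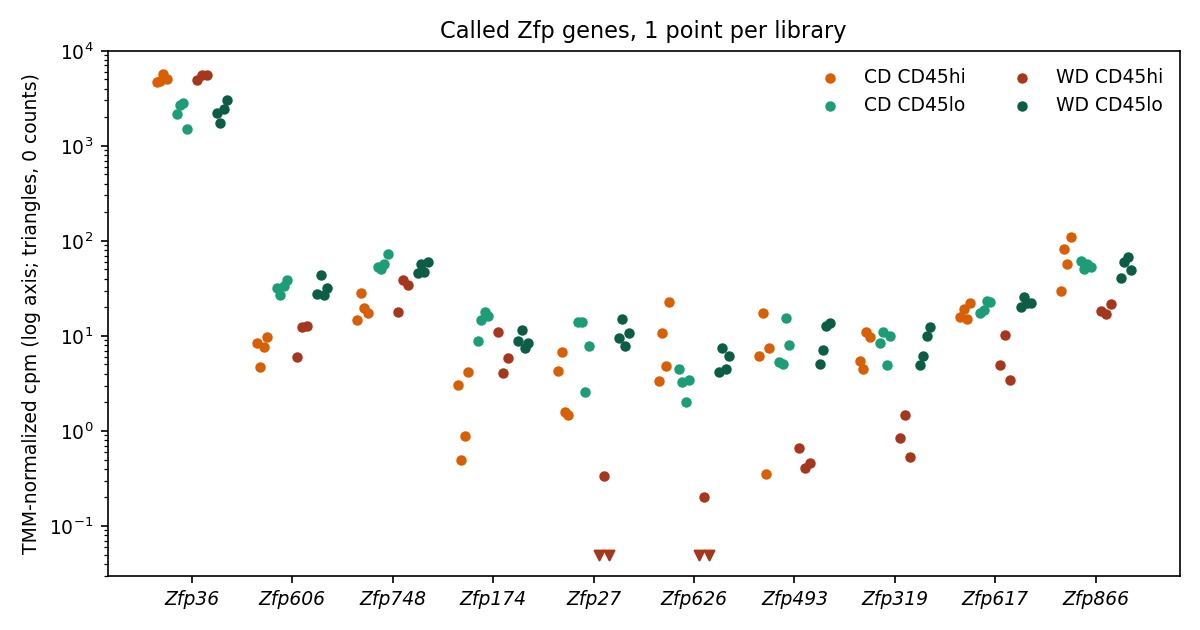
Points give the TMM-normalized cpm (log axis) of 10 called Zfp genes in each library, coloured by group, with triangles for libraries at 0 counts. Zfp36 lies at 1489 cpm or more in every library and higher in the CD45hi groups, and the WD CD45hi points of Zfp27, Zfp626, Zfp493 and Zfp319 lie at or below 1.48 cpm.

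Called or not, 9 genes had all CD45hi libraries below all CD45lo libraries on both diets (3.78%, against 2.71% of all genes tested), and these were listed after their values were seen: Zfp266, Zfp334, Zfp37, Zfp418, Zfp456, Zfp595, Zfp606, Zfp748 and Zfp937. All but Zfp37 carry the KRAB pattern, which 129 of the 236 genes with a coding sequence had. Zfp37 had 0.901 to 4.59 cpm in CD CD45hi against 14.3 to 30.5 cpm in CD CD45lo, and 0.188 to 5.64 cpm in WD CD45hi against 11.3 to 29.7 cpm in WD CD45lo libraries. Its log2 fold changes of -2.78 and -3.16 passed with no fold limit (FDR = 0.0400 and 0.0369, edgeR glmQLFTest). In the opposite direction only Zfp36 and Zfp106 had no overlap on both diets (0.84%, against 5.01% of all genes tested).

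Whether the KRAB genes differed from the rest was described by counts and medians. The median log2 fold change of the 129 genes with the KRAB pattern was -0.39 on the CD and -0.56 on the WD, and 90 and 97 of them were below 0. For the 107 genes without it the medians were -0.13 and -0.09, with 60 and 61 below 0. Of the 12 Zfp genes lower on the WD with no fold limit (edgeR glmQLFTest), 10 had the KRAB pattern, and the 4 higher ones had none. On the CD 2 of the 4 lower genes had it, and none of the 3 higher ones. Among all 236 genes scored, 129 had it, and these counts rest on few genes. Genes with the KRAB pattern were also expressed at a lower level (median of the mean 15.5 against 24.5 cpm) and had more CD45hi dropouts (4.87% against 2.27% of values). Within the 5 to 10 cpm band the medians were -0.75 and -1.31 with the pattern and -0.36 and -0.38 without it. At 10 to 20 cpm they were -0.340 and -0.666 (38 genes with the pattern) against -0.017 and -0.015 (20 without it). At 20 to 50 cpm they were -0.126 and -0.198 against -0.139 and -0.415, so the order turned there, only slightly on the CD. At 50 cpm and over (8 genes with the pattern) they were -0.42 and -0.57 against -0.05 and 0.06. The 138 genes within 200 kb of another Zfp gene had medians of -0.35 and -0.55, and the 99 genes farther away -0.14 and -0.14.

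**Figure D5:**
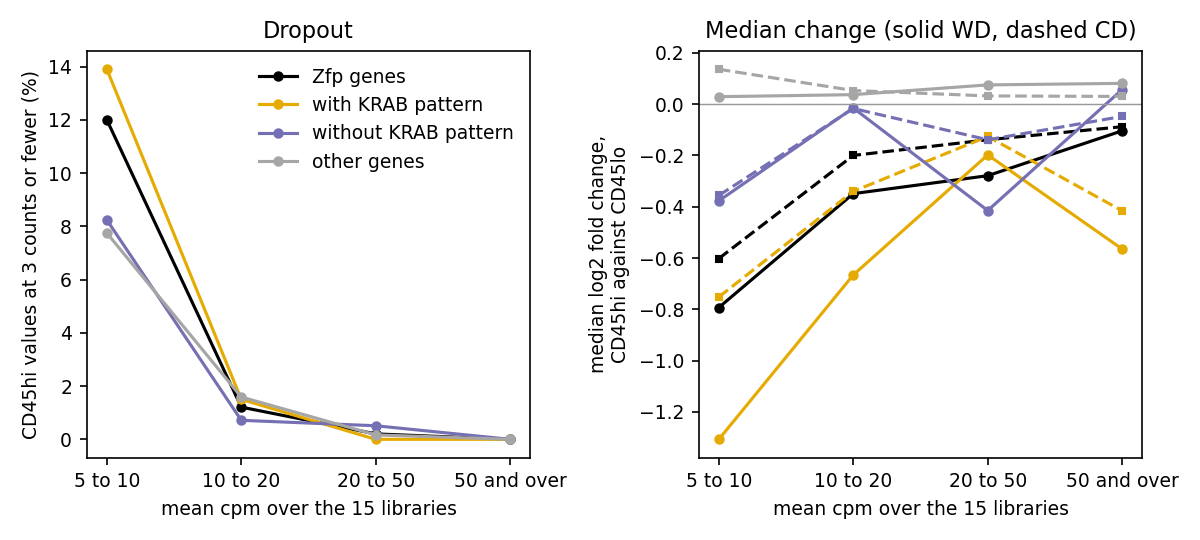
The left plot gives the percent of CD45hi values at 3 counts or fewer and the right plot the median log2 fold change (CD45hi against CD45lo; solid lines WD, dashed lines CD) in 4 bands of mean cpm, for all Zfp genes, those with and without the KRAB pattern, and other genes. Zfp genes reach 12.0% dropout in the lowest band and fall to 1.21% in the next, and their medians stay below those of other genes in all 4 bands on both diets.

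The co-repressor genes through which KRAB proteins act were examined as a list. Of 33 gene identifiers of the list (TRIM28, SETDB1, HP1, NuRD, HUSH and DNA methylation components), none was called on the CD (3.98% of all genes tested were). On the WD 1 was called, lower in CD45hi cells (1.17% of all genes tested were called lower, edgeR glmTreat). Their median log2 fold changes were 0.04 and -0.11. Trim28 averaged 37.1 ± 10.8 (SD, n = 4) cpm in CD CD45hi and 55.2 ± 6.53 (n = 4) cpm in CD CD45lo cells, and 48.8 and 41.3 cpm on the WD. The gene called was Uhrf1, a reader of hemimethylated DNA best known from dividing cells, at 0 to 0.0941 cpm in WD CD45hi and 0.933 to 4.45 cpm in WD CD45lo libraries (FDR = 0.0395, edgeR glmTreat). With no fold limit Chd4 of the NuRD complex was higher in CD45hi cells on the WD, at 181 to 272 against 117 to 186 cpm (log2 0.73, SE 0.193, FDR = 0.0229, edgeR glmQLFTest), and Setdb2 was higher on the CD (FDR = 0.0372, edgeR glmQLFTest), where its CD45hi libraries ran from 13.2 to 152 cpm. Zfp410, a factor known for its control of Chd4, averaged 21.4 cpm and was not called (log2 0.56 and 0.51 on the CD and WD).

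Promoters of 198 of the 238 genes were in the RefSeq promoter table (GRCm38.p6; 250 bases before to 50 after the start). The ETS core CCGGAAG, searched on both strands, occurred in 22.7% of them and in 9.12% of all 27025 promoters. The GC box GGGCGG was found in 49.0% and 35.9%, and the TATA box TATAAA in 6.06% and 14.2%. The CRE TGACGTCA was found in 3.03% and 1.88%. These matches describe the letters only. The 250 bases before the start are shown for Zfp36, the gene higher in CD45hi cells (chr7:28379229-28379478, minus strand), and Zfp606, a gene called lower on the CD with no overlap on either diet (chr7:12478055-12478304, plus strand), with the ETS core in capitals.
Zfp36: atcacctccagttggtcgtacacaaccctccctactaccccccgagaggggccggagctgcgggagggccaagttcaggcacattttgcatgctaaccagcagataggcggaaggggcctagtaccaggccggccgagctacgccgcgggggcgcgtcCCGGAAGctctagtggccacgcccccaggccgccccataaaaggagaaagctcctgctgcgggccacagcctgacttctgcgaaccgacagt
Zfp606: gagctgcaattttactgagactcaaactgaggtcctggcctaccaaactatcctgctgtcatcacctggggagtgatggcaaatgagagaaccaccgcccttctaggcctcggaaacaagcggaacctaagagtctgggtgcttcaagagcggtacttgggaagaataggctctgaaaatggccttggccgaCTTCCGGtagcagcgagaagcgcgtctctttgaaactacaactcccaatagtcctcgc

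Each of these promoters held 1 ETS core, with 18 CpG dinucleotides in that of Zfp36 and 10 in that of Zfp606.

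Among members with roles outside transcriptional silencing, Zfp106 was higher in CD45hi cells. Zfp106 encodes an RNA-binding protein needed by motor neurons, and had 255, 267, 326 and 302 cpm in CD CD45hi against 193, 151, 163 and 153 cpm in CD CD45lo libraries. On the WD it had 313, 359 and 295 cpm against 156, 167, 180 and 182 cpm. The groups did not overlap on either diet, and the rises of 1.74-fold and 1.88-fold passed with no fold limit (FDR = 0.00129 and 0.000677, edgeR glmQLFTest) but not against 1.5-fold (FDR = 0.22 and 0.0862, edgeR glmTreat). Its exons overlap those of the antisense gene Gm26899.

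Zfp91, a ubiquitin ligase of the non-canonical NF-kB pathway, had 236, 178 and 164 cpm in WD CD45hi against 106, 105, 89.2 and 86.6 cpm in WD CD45lo libraries, without overlap. Its rise of 1.99-fold passed with no fold limit (log2 0.99, SE 0.177, FDR = 0.00133, edgeR glmQLFTest; FDR = 0.069, edgeR glmTreat). On the CD its CD45hi libraries lay at 129 to 141 cpm and its CD45lo libraries at 96.9 to 130 cpm, which overlapped (log2 0.27, SE 0.165). Other members of this kind were not called on either diet. Zfp598, the ubiquitin ligase that senses collided ribosomes, had log2 fold changes of -0.14 and 0.04. For Zfp622, which acts in assembly of the large ribosomal subunit, they were 0.57 and 0.72. For Zfp451, a SUMO ligase, they were 0.06 (SE 0.208) and -0.13 (SE 0.225). Zfp326, a subunit of a complex that joins transcription to splicing, had 0.03 and 0.07, and Zfp207 had -0.06 and -0.16.

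The promoter-binding activators and repressors without the KRAB pattern were not called either. Zfp143, which binds at promoters and chromatin loop anchors, ran from 8.3 to 31.5 cpm in CD CD45hi and from 9.78 to 58.5 cpm in WD CD45hi libraries, against 21.1 to 37.7 cpm in CD45lo libraries. Zfp148, a GC-box factor, was at 91.7 to 106 cpm in CD CD45hi against 121 to 155 cpm in CD CD45lo, and at 122 to 201 against 121 to 144 cpm on the WD. Its log2 fold changes thus had opposite signs (-0.43, SE 0.173, and 0.36, SE 0.185), and their difference did not pass (log2 0.79, FDR = 0.36, edgeR glmQLFTest). For Zfp281, Zfp384, Zfp335 and Zfp644 the log2 fold changes lay between -0.73 and 0.49 on the 2 diets. Of the KRAB genes with a known target, Zfp809, which silences retroviral DNA, had 33, 18.1, 3.61 and 22.1 cpm in CD CD45hi against 8.77 to 12.5 cpm in CD CD45lo libraries. On the WD it had 27.3, 43.3 and 24.8 cpm against 10.5 to 18.5 cpm, without overlap, and it was not called (log2 1.27, SE 0.536, FDR = 0.30, edgeR glmTreat). Zfp445, a regulator of imprinted loci, ranged from 8.37 to 68.3 cpm in CD45hi and from 44.5 to 62.4 cpm in CD45lo libraries, with log2 fold changes of -0.60 and -0.16. Zfp746, the parkin substrate PARIS, had -0.04 on both diets, with CD45hi libraries from 2.73 to 38.6 cpm.

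Related zinc finger families were tested beside the Zfp genes. Of 36 Zbtb genes (BTB domain) none was called on the CD and 1 was lower on the WD, Zbtb22, at 0.0671 to 0.188 cpm in CD45hi against 2.6 to 9.02 cpm in CD45lo libraries (FDR = 0.00514, edgeR glmTreat). With no fold limit 1 was lower on the CD, and on the WD 4 were lower and 1 higher (edgeR glmQLFTest). Their medians were -0.10 and -0.34. Of 9 Zscan and 10 Zkscan genes none was called by either edgeR test, with medians of -0.24 and -0.27 and of -0.41 and -0.85.

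The other question was whether the WD changed these genes within a cell type. In CD45hi cells 2 Zfp genes were called (0.84%, against 0.254% of all genes tested), both lower on the WD (edgeR glmQLFTest). Of all genes tested 0.194% were called lower and 0.0601% higher, and 44 Zfp genes had an unadjusted p under 0.05 (18.5%, against 17.6%). Zfp626 had 51, 130, 55 and 357 counts in the CD CD45hi and 0, 3 and 0 counts in the WD CD45hi libraries, at least 44.1-fold lower (FDR = 0.0280, edgeR glmQLFTest). Zfp866, a KRAB gene, had 29.8, 81.9, 56.4 and 110 cpm in CD CD45hi and 18.4, 17 and 21.9 cpm in WD CD45hi libraries, a 3.64-fold lower level without overlap (log2 -1.86, SE 0.368, FDR = 0.0442, edgeR glmQLFTest). These comparisons share their WD CD45hi libraries with those above. Both calls were lost in a fit of only the 2 groups compared, and leaving out single CD45lo libraries ended them too (any of the 8 for Zfp866, all but WD CD45lo replicate 4 for Zfp626). Zfp866 also lost its call without CD CD45hi replicate 2 or 4 or WD CD45hi replicate 1. Over the alternatives Zfp866 ranged in log2 from -2.12 to -1.53, and Zfp626 stayed lower on the WD in all of them.

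Over all 238 Zfp genes the median log2 fold change (WD against CD) was -0.10 in CD45hi cells, with 129 of 238 below 0 (50.9% of all genes were), and 0.06 in CD45lo cells, with 96 below 0 (49.1% of all genes were). In CD45lo cells no Zfp gene was called by edgeR glmQLFTest (0% of all genes tested) or by DESeq2 (0.0267% of all genes), and 0 of 238 had an unadjusted p under 0.05, against 0.822% of all genes. A fit of the CD45lo libraries alone called none either (0% of all genes tested). In the main fit all groups shared a single estimate of the spread, although CD45hi libraries varied more. The shares with an unadjusted p under 0.05 depend on this in both cell types. Absence of a call in CD45lo cells does not show absence of a change. A difference between the diets in the CD45hi to CD45lo change (the interaction) was called for no Zfp gene by edgeR glmQLFTest (0.00668% of all genes were), 24 genes had an unadjusted p under 0.05 (10.1%, against 10.1% of all genes), and DESeq2 called 5 (2.1%, against 1.26% of all genes). For Zfp626 the interaction had an FDR of 0.21 and for Zfp27 of 0.30 (edgeR glmQLFTest). The CD45hi to CD45lo change was thus not shown to differ between the diets for either gene.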

How the data were processed

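Libraries were poly(A)-selected (TruSeq RNA v2) and sequenced as 75 bp paired-end reads. The authors trimmed bases under Phred 30, aligned with Bowtie2 within RSEM 1.2.12 to mm10 and deposited, per gene and library, an expected count (an estimated count, not normalized) and a TPM (per transcript length). The annotation release, the strand setting and the sequencer of each library are not given in the sources used here. Samples were grouped by the labels for diet and CD45 level.

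Expected counts were rounded. Genes that reached 1 cpm in fewer than 2 libraries were dropped, and the 14967 kept (of 38924) were TMM-normalized and fitted in edgeR 4.0.16 (R 4.3.3, earlier quasi-likelihood form) with 4 groups. All groups shared a single estimate of the spread per gene. CD45hi and CD45lo cells were compared with glmTreat at 1.5-fold, diets and interaction with glmQLFTest, p-values adjusted by Benjamini-Hochberg over all genes, FDR under 0.05 called. SE is the log2 fold change divided by the square root of F. Replicate pairs differed by chi-square per degree of freedom of 22 to 143 (21 pairs), and none was counted as a repeat. On simulated data for the WD comparison (14454 genes), 1 of 67 genes changed 2-fold, 20 of 67 changed 4-fold and 43 of 66 changed 8-fold were recovered, with 0 false calls. For the diets in CD45hi cells the counts were 8, 29 and 49, with 7 false calls, and for the interaction 4, 19 and 39, with 6 false calls. The simulation gave all groups the same spread per gene. The real CD45hi libraries varied more than the CD45lo libraries, so recovery and false calls in the real data may differ from these counts.

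KRAB patterns, fingers and shared windows came from GENCODE M21 coding sequences. Named genes are the 5 highest, those called (up to 5 in each direction), the 6 with most dropouts, those at the 5 cpm limit and a list of members with known roles. The members, lists and tests were chosen with earlier results of these data known. Alternatives were DESeq2 1.42.0, other scaling, filters and thresholds, replicate blocks and leaving out each library.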

Additional observations from a re-analysis of the deposited data

Results flagged for a closer look

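In 120 groups of 4 libraries examined, 7 had a highest or lowest library set apart from the other 3 by Dixon's criterion, and chance gives about 1 in 20. Zfp488 was highest in CD CD45lo replicate 1 (228 cpm, the others 204 to 207), and Zfp661 in CD CD45hi replicate 2 (4.55 cpm, the others 0.0644 to 0.59). Zfp583 was highest in CD CD45hi replicate 3 (24 cpm, the others 0.129 to 3.21). Zfp207 was lowest in CD CD45hi replicate 2 (92.7 cpm) and highest in CD CD45lo replicate 1 (252 cpm), and Zfp809 was lowest in CD CD45lo replicate 1 (8.77 cpm). The number of Zfp genes at 3 counts or fewer was 1 in CD CD45lo replicate 3 and 0 in the other CD CD45lo libraries.

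Zfp654 moved in opposite directions on the 2 diets: all CD CD45hi libraries (14.9 to 30.9 cpm) lay below all CD CD45lo libraries (34.4 to 44.8 cpm), and all WD CD45hi libraries (43.2 to 61.5 cpm) lay above all WD CD45lo libraries (22.2 to 36.8 cpm). The interaction was 1.27 on the log2 scale (SE 0.433) and did not pass (FDR = 0.37, edgeR glmQLFTest).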

How the results depend on the processing

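The counts of called genes depended on the test. In place of 4 and 6 genes called between the cell types on the CD and WD, glmQLFTest with a 1.5-fold limit gave 7 and 16. These were 2.94% and 6.72%, against 7.76% and 8.92% of all genes. The form without a limit, chosen after seeing the data, gave 7 and 16 as well (8.03% and 9.12% of all genes). DESeq2 gave 14 and 30 (5.88% and 12.6%, against 12% and 15.3% of all genes), and the edgeR 4 form 7 and 10 (5.49% and 6.21% of all genes). For the diets in CD45hi cells 2 genes became 23 with DESeq2 (9.66%, against 6.88% of all genes) and 0 in a fit of only the groups compared, and for the interaction 0 became 5 with DESeq2. With a replicate block by title numbers the counts were 5 and 3 between the cell types (3.35% and 4.04% of all genes). In CD45hi between diets that block gave 0 (0.0134% of all genes). A replicate block by the specimen numbers in the deposited names gave 1 (Zfp36) and 3 (Zfp36, Zfp27 and Zfp626) between the cell types. Of all genes 2.75% and 2.36% were called with the specimen block. Deviations of same-numbered libraries correlated at -0.0132 to 0.0753 under either numbering. Leaving out single libraries gave 1 (without CD CD45lo replicate 4) to 7 (without CD CD45hi replicate 3) on the CD. These were 0.42% and 2.94%, against 2.93% and 4.51% of all genes. On the WD it gave 3 (without WD CD45lo replicate 4) to 13 (without WD CD45hi replicate 3). These were 1.26% and 5.46%, against 3.8% and 5.97% of all genes. Between diets in CD45hi it gave 0 (without any single CD45lo library other than WD CD45lo replicate 4) to 6 (without WD CD45hi replicate 2 or 3). The fits with 0 called 0.00672% to 0.0806% of all genes, and those with 6 (2.52%) called 1.92% and 1.82%. For the interaction it gave 0 to 1 (0.0404% of all genes in the fit with 1). Without both CD45hi libraries with most dropouts, chosen after seeing the data, the counts were 5 and 13 between the cell types and 10 between diets in CD45hi. These were 2.1%, 5.46% and 4.2%, against 4.24%, 7.03% and 1.97% of all genes, so calls rose among all genes too. The medians of -0.22 and -0.36 became -0.45 and -0.67 with no scaling, which moved the median of all genes to -0.20 and -0.31. On the WD the median was -0.16 for genes of at least 20 cpm and -0.16 for those with 5 cpm in each group, and over single libraries left out the medians ran from -0.31 to -0.22 and -0.50 to -0.28. CD45hi dropouts of 3.78% became 6.96% at 10 counts, 0.504% and 0.129% for genes of at least 10 and 20 cpm and 0.257% for genes with 5 cpm in each group. For 17 results of single genes, none of 453 alternatives turned the direction. The 12 results that were called kept the call under 246 of 318 alternatives and lost it under 72, and the other 5 stayed uncalled under 109 and gained a call under 26. Depth set the floor of 3 counts at 0.156 to 0.282 cpm. In simulation of the WD comparison, which gave all groups an equal spread, 1 of 67 genes with a 2-fold change was recovered.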
